A study of Mus musculus with 11 samples.

Results

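Expression of 8 scavenger receptor genes was measured in mouse microglia, the resident macrophages of the brain. The genes were Msr1, Marco, Colec12, Cd36, Scarb1, Olr1, Cd5l and Cd14. They were found by matching the RefSeq accession that each array probe was designed on to a gene symbol, and they are 8 of the 19555 genes tested. Together they had 18 probes, and all 18 passed the filter on dim probes. Cd36 had 6 probes, Msr1 had 4, Scarb1 and Colec12 had 2 each, and the other genes had 1. The value of a gene is the mean of its probes on the log2 scale after quantile normalisation, so that a difference of 1 is a doubling. Probes differ in brightness, and no gene was therefore ranked against another.

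Scavenger receptors are surface or secreted proteins that bind modified lipoproteins, apoptotic cells, microbial surfaces and protein aggregates. Macrophages use them to take up lipid and debris, and several are known to rise when macrophages load lipid or meet microbial products. Class A receptors (Msr1, Marco and Colec12) carry collagen-like stalks, class B receptors (Cd36 and Scarb1) handle lipoproteins and fatty acids, Olr1 binds oxidised lipoprotein, Cd5l is a secreted relative of the cysteine-rich scavenger receptors, and Cd14 hands lipopolysaccharide to the TLR4 complex. In brain, Cd36, Msr1 and Cd14 are known for binding aggregated amyloid.

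The cells came from C57BL/6N mice. Adult microglia sorted by flow cytometry, from adult females, gave 2 arrays (A_FACS), and sorted newborn microglia gave 3 arrays (NB_FACS). The sort took cells with high CX3CR1 and intermediate CD45. Newborn microglia grown in mixed glial flasks, fed with M-CSF-rich medium conditioned by L-929 fibroblasts, shaken off and then kept for a day in medium with serum gave 3 arrays without cytokines (NB_Control). The same kind of culture to which human CX3CL1, IL-34 and TGF-β1 were added, each at 100 ng/mL, gave 3 arrays (NB_Stim). All cells were released from brain with trypsin. Cultured cells differed from sorted cells in isolation method, in weeks of growth and in the conditioned medium as well as in the final day, and these cannot be told apart here. The sorted adult and newborn cells differed in sex composition as well as in age. Adults were killed with carbon dioxide and perfused through the heart, and their brains were pressed through a strainer. Newborns were decapitated, and their brains were dissociated by pipette. These differences cannot be told apart from age here. The study defines its replicates as independent biological samples, but the labels name no animal or culture, and p-values measure the spread between these arrays.

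Between 66.8% and 80.4% of probes were well above background on an array, and no spot was saturated. Replicate 3 of each newborn group lay on slide 2 and the other 8 arrays on slide 1, where both adult arrays were. Replicates 1 and 2 of the cultured groups were the closest pairs of the data (Pearson r across genes of 0.995 in NB_Control and 0.994 in NB_Stim). The labels do not say whether these pairs came from separate cultures, and if they did not, each cultured group holds 2 samples. Of 12 defining microglia markers 11 were tested. Their summed signal was 309000 to 323000 in A_FACS, 191000 to 209000 in NB_FACS, 77300 to 91100 in NB_Control and 176000 to 184000 in NB_Stim, and Gpr34 was not well above background on any newborn array. The number of arrays limits the precision. In such bulk samples fewer cells of a type and less RNA per cell cannot be told apart.

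Among the class A receptors, all 3 were low in sorted cells and high in cultured cells. Msr1, which binds acetylated lipoprotein and amyloid, stood at 4.72 and 5.17 on the A_FACS arrays, at 6.02, 6.47 and 6.82 on the NB_FACS arrays, at 10.21, 10.37 and 10.40 on the NB_Control arrays and at 9.13, 9.04 and 9.45 on the NB_Stim arrays. No group overlapped another, and the order was A_FACS, NB_FACS, NB_Stim and NB_Control, with every neighbouring pair past the test. Marco, a receptor for bacteria and particles, stood at 1.18 and 1.52 in A_FACS, at 2.39, 2.77 and 3.54 in NB_FACS, at 10.90, 10.88 and 11.06 in NB_Control and at 9.42, 9.03 and 10.47 in NB_Stim. It was well above background on 0 of 2 A_FACS arrays, on 1 of 3 NB_FACS arrays and on all cultured arrays, and the groups again did not overlap. Colec12, which recognises sugars and oxidised lipoprotein, stood at 1.76 and 2.76 in A_FACS, at 4.67, 4.48 and 4.79 in NB_FACS, at 8.94, 8.80 and 8.99 in NB_Control and at 9.49, 9.47 and 8.92 in NB_Stim. The cultured groups overlapped each other and lay above both sorted groups.

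Class B showed one gene that rose in culture and one that did not. Cd36, which takes up fatty acids and oxidised lipoprotein, stood at 3.58 and 3.77 in A_FACS, at 4.80, 4.52 and 4.60 in NB_FACS, at 8.62, 8.72 and 9.67 in NB_Control and at 5.73, 5.73 and 6.0 in NB_Stim. The 3 NB_Control arrays were far above all others, with replicate 3 the highest, and no groups overlapped. Scarb1, the receptor for high-density lipoprotein, stood at 8.67 and 8.93 in A_FACS, at 9.53, 9.39 and 9.58 in NB_FACS, at 8.56, 8.52 and 8.86 in NB_Control and at 8.58, 8.64 and 8.64 in NB_Stim. The NB_FACS arrays were above the other 8, and no other neighbours in the order of the groups differed past the test.

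The other receptors had 1 probe each. Olr1 stood at 5.72 and 5.59 in A_FACS, at 6.33, 6.23 and 6.76 in NB_FACS, at 5.26, 5.30 and 5.35 in NB_Control and at 6.03, 5.81 and 5.11 in NB_Stim. Its highest 3 arrays were those of NB_FACS, and among the other groups, of which NB_Stim overlapped both, no pair differed past the test. Cd5l, a secreted inhibitor of apoptosis and fatty acid synthesis in macrophages, stood at 5.29 and 4.15 in A_FACS, at 7.01, 7.34 and 7.52 in NB_FACS, at 10.25, 9.76 and 12.53 in NB_Control and at 7.21, 7.04 and 6.78 in NB_Stim. Its NB_Control arrays were above all others and also the most spread out, with replicate 3 the highest, and NB_FACS and NB_Stim overlapped. Cd14 stood at 15.11 and 15.23 in A_FACS, at 14.72, 14.71 and 14.72 in NB_FACS, at 15.43, 15.31 and 14.00 in NB_Control and at 15.02, 15.02 and 14.51 in NB_Stim. No pair of groups differed past the test, and the lowest 2 arrays were replicate 3 of both cultured groups.

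**Figure D1:**
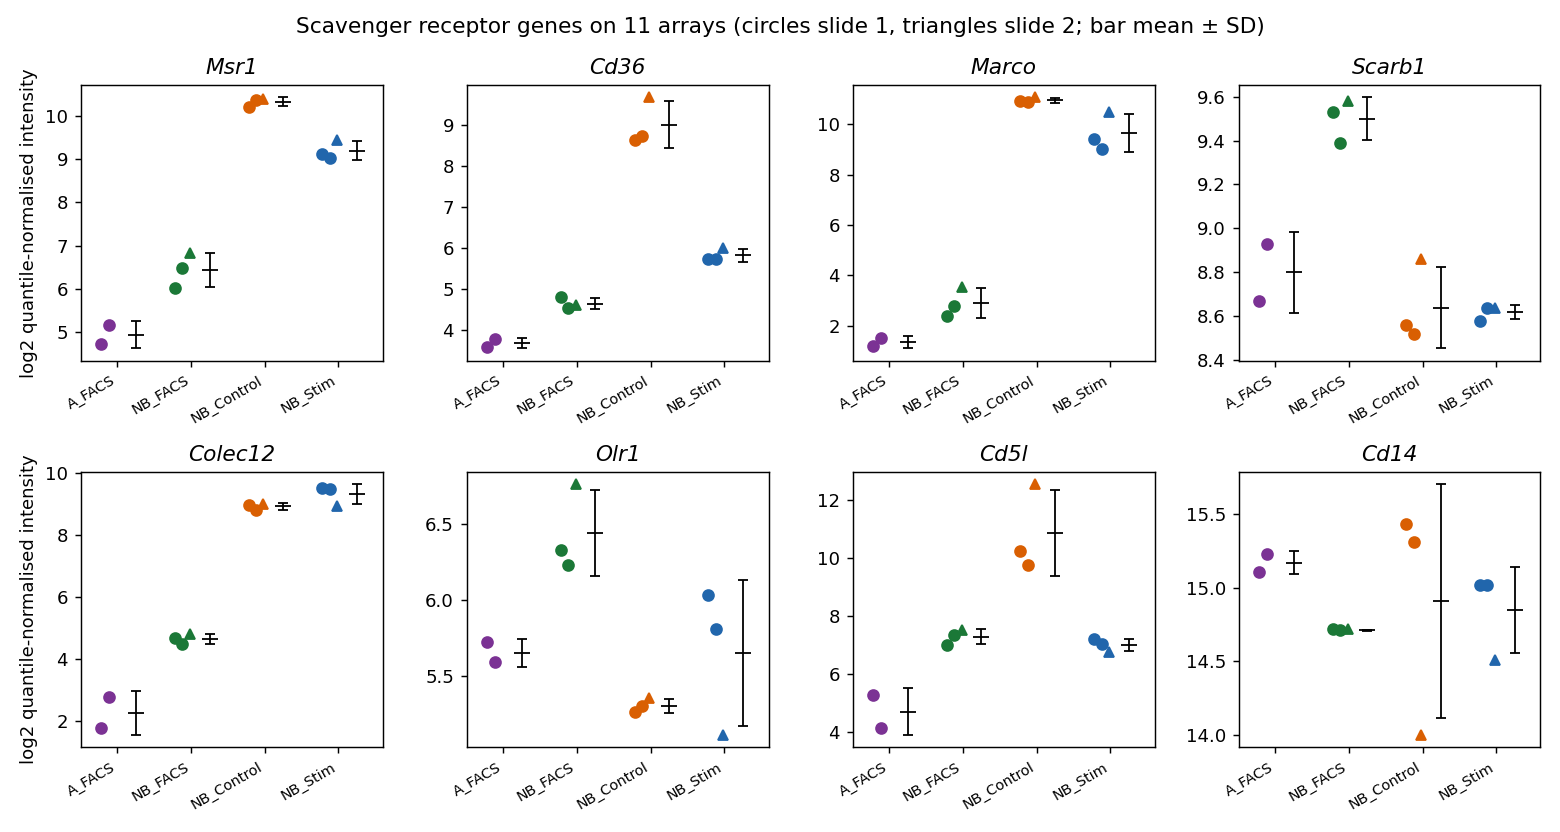
Log2 quantile-normalised intensity (vertical axis, own range per panel) of the 8 genes on every array, by group, with circles for slide 1, triangles for slide 2 and a bar for the mean ± SD (n = 2 for A_FACS, n = 3 otherwise). Msr1, Marco, Colec12, Cd36 and Cd5l are highest in cultured cells, Scarb1 and Olr1 are highest in NB_FACS, and Cd14 lies between 14.00 and 15.43 on all 11 arrays.

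The first comparison asked how newborn microglia changed between sorting and culture. In NB_Control against NB_FACS, 5 of the 8 genes were called higher and 2 lower at an adjusted p under 0.05, where 15.8% and 13.9% of all genes tested were called in these directions. Marco is among the 5 and passed the filter on dim probes only through the cultured groups. The median difference of the 8 genes was 3.72 on the log2 scale, beside 0.09 over all genes. The groups did not overlap for 7 of the 8, as for 44.2% of all genes.

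Marco rose from 2.90 ± 0.585 (SD, n = 3) to 10.95 ± 0.101 (n = 3), a log2 difference of 8.05 (SE 0.374) with an adjusted p of 9.44e-07 in limma. That is 266-fold on the fitted scale, measured against a group in which 1 of 3 arrays was well above background. Cd36 rose by 4.36 (SE 0.253, adjusted p = 2.57e-06 in limma), from 4.64 ± 0.141 to 9.01 ± 0.579, or 20.6-fold. Colec12 rose by 4.26 (SE 0.253, adjusted p = 2.96e-06 in limma), or 19.2-fold, and Msr1 by 3.89 (SE 0.217, adjusted p = 2.30e-06 in limma), or 14.8-fold. All 4 were higher on every NB_Control array than on any NB_FACS array, and on slide 2 alone, with 1 array a group, their differences were 7.53, 5.07, 4.20 and 3.58 in the same order. In NB_FACS the Cd36 probe on NM_001159555 and the Colec12 probe on XM_006525640 were well above background on 0 of 3 arrays. The Cd36 probe on NM_007643 was so on 1 of 3. The sizes of the 4 differences depended on the treatment of background. With another background correction, normexp, which here added an offset of 50 to each signal before the log2 step, they were 4.99, 2.85, 2.44 and 3.09. All were still called. The offset by itself shrinks differences of dim signals, here and in the later normexp values.

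Cd5l rose by 3.56 (SE 0.609, adjusted p = 0.00162 in limma), or 11.8-fold. NB_Control replicate 3 carried much of this size. Without it the difference was 2.72 (adjusted p = 0.000459 in limma), and within the slides it was 2.83 on slide 1 and 5.01 on slide 2.

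Scarb1 fell by 0.86 (SE 0.137, adjusted p = 0.00112 in limma), from 9.50 ± 0.0959 to 8.64 ± 0.185. Olr1 fell by 1.14 (SE 0.232, adjusted p = 0.00431 in limma), from 6.44 ± 0.281 to 5.30 ± 0.0476. Both were lower on all 3 NB_Control arrays than on any NB_FACS array. Cd14 differed by 0.20 with a 95% interval of -0.54 to 0.94 (adjusted p = 0.706 in limma). Its slides went opposite ways, with NB_Control higher by 0.66 on slide 1 (adjusted p = 0.00378 in limma) and a difference of -0.72 on slide 2.

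The second comparison asked what the 3 cytokines did in culture. In NB_Stim against NB_Control 3 of the 8 genes were called lower and 0 higher, where 2.00% and 1.40% of all genes tested were called in these directions. The 3 were Cd36, Cd5l and Msr1. The median difference was -0.59, beside 0.00 over all genes, and the groups did not overlap for 4 of the 8, as for 24.0% of all genes. This comparison shares its NB_Control arrays with the first, and its values are given beside those of the first only as measured.

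Cd36 fell by 3.18 (SE 0.253, adjusted p = 0.000209 in limma), from 9.01 ± 0.579 to 5.82 ± 0.156, so that it was 9.09-fold higher without cytokines. It was lower on all 3 NB_Stim arrays, with differences of -2.94 on slide 1 and -3.67 on slide 2. Cd5l fell by 3.84 (SE 0.609, adjusted p = 0.00851 in limma), from 10.85 ± 1.48 to 7.01 ± 0.218, or 14.3-fold higher without cytokines. Without NB_Control replicate 3 the Cd5l difference was -3.0 (adjusted p = 0.00227 in limma). The Cd5l call was lost when only the 2 groups entered the fit (adjusted p = 0.0505 in limma) and when cultured replicates 1 and 2 were averaged (adjusted p = 0.0548 in limma). It was also lost in the methods' Tukey test after Benjamini-Hochberg adjustment (adjusted p = 0.16).

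Msr1 fell by 1.12 (SE 0.217, adjusted p = 0.0218 in limma), from 10.33 ± 0.102 to 9.20 ± 0.214. All 3 NB_Stim arrays were lower than any NB_Control array. The call was lost when NB_Control replicate 1, 2 or 3 or NB_Stim replicate 1 or 2 was left out, with differences of -1.18 to -1.04 and adjusted p-values of 0.0631 to 0.0978 in limma. It was also lost with cultured replicates 1 and 2 averaged (adjusted p = 0.238 in limma), with the brightest probe in place of the mean (-0.81, adjusted p = 0.185 in limma) and in the methods' Tukey test after Benjamini-Hochberg adjustment (adjusted p = 0.214). Marco, called higher in culture, differed by -1.31 (SE 0.374, adjusted p = 0.106 in limma) and did not pass. It passed with the replicate number as a block (adjusted p = 0.0239 in limma), with the slide as a block (0.0124) and without NB_Stim replicate 3 (-1.72, adjusted p = 0.0197 in limma), and the difference was -1.67 on slide 1 and -0.59 on slide 2.

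The remaining 4 genes did not pass with cytokines. Colec12 differed by 0.38 (95% interval -0.18 to 0.95, adjusted p = 0.565 in limma) and Scarb1 by -0.02 (-0.33 to 0.28, adjusted p = 0.969 in limma). The Scarb1 interval leaves room for changes of up to 0.33 in size. Olr1 differed by 0.35 (-0.17 to 0.87, adjusted p = 0.571 in limma), with 0.64 on slide 1 (adjusted p = 0.0356 in limma) and -0.24 on slide 2. Cd14 differed by -0.06 (-0.80 to 0.67, adjusted p = 0.966 in limma).

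**Figure D2:**
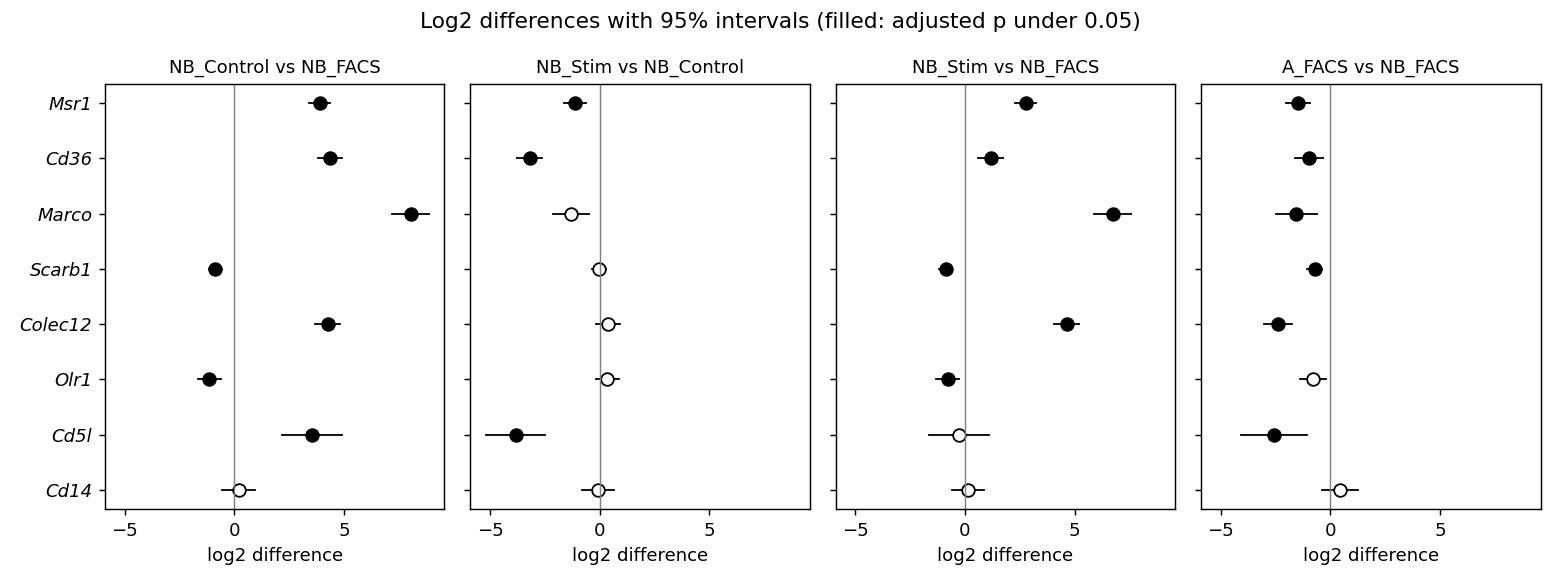
Log2 difference (horizontal axis) and 95% interval of the 8 genes (vertical axis) in 4 comparisons, with filled points for an adjusted p under 0.05. In NB_Control against NB_FACS 7 points are filled, in NB_Stim against NB_Control only those of Msr1, Cd36 and Cd5l, all below 0, and in A_FACS against NB_FACS 6 are filled, all below 0.

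The third comparison asked how cultured cells with cytokines stood against sorted newborn cells. In NB_Stim against NB_FACS 4 of the 8 genes were called higher and 2 lower, where 16.0% and 15.1% of all genes tested were called in these directions. The groups did not overlap for 6 of the 8, as for 43.5% of all genes. Class A receptors were still high. Marco was higher by 6.74 (SE 0.374, adjusted p = 2.23e-06 in limma), Colec12 by 4.65 (SE 0.253, adjusted p = 2.12e-06 in limma) and Msr1 by 2.77 (SE 0.217, adjusted p = 1.51e-05 in limma). Their NB_Stim arrays were all above their NB_FACS arrays. With normexp the differences were 3.75, 2.71 and 2.11, all still called.

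Cd36 was higher by 1.18 (SE 0.253, adjusted p = 0.00565 in limma), or 2.27-fold. With normexp the Cd36 difference was 0.49 and the call was lost (adjusted p = 0.111 in limma). Cd5l differed by -0.28 (95% interval -1.64 to 1.08, adjusted p = 0.765 in limma), with overlapping groups, an interval that allows changes of more than 2-fold either way. Scarb1 was lower by 0.88 on the log2 scale, a difference of -0.88 (SE 0.137, adjusted p = 0.000952 in limma). Olr1 differed by -0.79 (SE 0.232, adjusted p = 0.0265 in limma), a call that was lost without NB_FACS replicate 1 (adjusted p = 0.0509 in limma) or replicate 3 (0.075). Cd14 differed by 0.14 (95% interval -0.60 to 0.87, adjusted p = 0.791 in limma).

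Adult and newborn cells were compared as freshly sorted, with age, sex composition, perfusion and dissociation differing together. In A_FACS against NB_FACS 6 of the 8 genes were called lower and 0 higher, where 12.9% and 9.75% of all genes tested were called in these directions. The 6 include Marco, which was well above background on 0 of 2 adult and 1 of 3 newborn arrays. Groups did not overlap for all 8 genes, as for 51.2% of all genes, and the median difference was -1.23 beside -0.01. Colec12 fell by 2.39 (SE 0.283, adjusted p = 0.00039 in limma) and was well above background on 1 of 2 adult arrays. That value averages a probe at -4.29 with a probe at -0.48 that was not well above background in either sorted group. Msr1 fell by 1.49 (SE 0.242, adjusted p = 0.00206 in limma), or 2.82-fold higher in newborn cells, and Scarb1 fell by 0.70 (SE 0.154, adjusted p = 0.00971 in limma). Marco was called at -1.55 (adjusted p = 0.0247 in limma), but both group means, 1.35 and 2.90, lay below 3.24, the mean over the adult arrays of the lowest log2 signal well above background on each, so no fold is given.

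Cd5l fell by 2.57 (SE 0.681, adjusted p = 0.0229 in limma) and Cd36 by 0.97 (SE 0.282, adjusted p = 0.0345 in limma). With normexp the differences were -1.31 for Cd5l (adjusted p = 0.157 in limma), -0.25 for Cd36 (0.512) and -0.13 for Marco (0.799), and these 3 calls were lost, while those of Colec12 at -0.89 and Msr1 at -0.65 were not. Of the 6 Cd36 probes 3 were well above background on 0 of 2 adult arrays. With 75th percentile scaling the calls of Cd36 (-0.75, adjusted p = 0.13 in limma) and Marco (-1.10, 0.0767) were lost too.

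A fit with 1 adult array takes its spread from the other groups, and the lone array is assumed to vary as they do. Leaving out either adult array ended the calls of Cd36 (-0.87 and -1.06, adjusted p = 0.179 and 0.0917 in limma) and Marco (0.153 and 0.0678). For Cd5l the call ended without A_FACS replicate 2 (adjusted p = 0.158 in limma) and for Scarb1 without A_FACS replicate 1 (0.086). Without NB_FACS replicate 1, 2 or 3 the Cd36 call ended too (0.0874, 0.0621 and 0.0669), and those of Marco (0.051 and 0.0657) and Cd5l (0.0574 and 0.0606) ended without NB_FACS replicate 2 or 3. Cd36 also missed the threshold without NB_Stim replicate 1 (0.0517).

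Olr1 differed by -0.79 (adjusted p = 0.054 in limma) between adult and newborn cells. It passed with the slide as a block (-0.82, adjusted p = 0.0455 in limma), within slide 1 (-0.63, 0.0104) and with NB_Stim replicate 1 (0.046) or 3 (0.0114) left out. Slide 2 held newborn arrays alone. Cd14, unlike the other 7 genes, had a positive difference, 0.46 with a 95% interval of -0.37 to 1.28 (adjusted p = 0.428 in limma), and on slide 1 alone, which held all the adult arrays, the same difference had an adjusted p of 0.0198.

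Adult sorted cells were also set against both cultures. Msr1, Marco, Colec12, Cd36 and Cd5l were called lower in A_FACS than in NB_Control and also than in NB_Stim, and 0 were called higher, where 23.2% and 22.8% of all genes were called lower and 17.7% and 17.5% higher. Marco was at least 209-fold higher in NB_Control and at least 84.3-fold higher in NB_Stim than in A_FACS, bounds set against the mean over both adult arrays of the lowest signal well above background on each (adjusted p = 3.89e-07 and 1.18e-06 in limma). Msr1 was 41.8-fold higher in NB_Control and 19.2-fold higher in NB_Stim, and Cd36 was 40.2-fold and 4.42-fold higher. On the adult arrays 1 of the 4 Msr1 probes and 3 of the 6 Cd36 probes were not well above background, so these folds rest in part on signal near background. With normexp the log2 differences from NB_Control and NB_Stim were -3.74 and -2.75 for Msr1 and -3.10 and -0.74 for Cd36, all still called. Colec12 was 100-fold and 131-fold higher against an adult group with 1 of 2 arrays well above background, and with normexp its log2 differences were -3.33 and -3.60. Cd5l was 70.0-fold and 4.89-fold higher, and its call against NB_Stim was lost without A_FACS replicate 2 (adjusted p = 0.159 in limma) or NB_Stim replicate 1 or 2 (0.0595 and 0.0546), with cultured replicates 1 and 2 averaged (0.0547) and with normexp (-1.09, 0.182). Scarb1, Olr1 and Cd14 passed in neither comparison, with differences between 0.00 and 0.35.

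Single probes of Cd36 did not all behave alike. Of its 6 probes, 5 were called higher in NB_Control than in NB_FACS, by 3.10 to 6.68, and the same 5 were called lower with cytokines, with differences of -4.70 to -2.71, where 12.8% of all probes were called higher and 1.48% lower. The probe on NM_001159555 was well above background on 0 of 3 NB_FACS arrays and was at least 8.44-fold higher in NB_Control. It passed the filter on dim probes only through NB_Control, and the probe on NM_007643 only through the cultured groups. The counts therefore include probes that were kept because they were bright in culture. The brightest, designed on NM_001159558, stood at 6.37 and 6.82 in A_FACS, at 7.75, 7.86 and 8.17 in NB_FACS, at 13.41, 13.40 and 14.90 in NB_Control and at 9.32, 9.37 and 9.78 in NB_Stim. The probe designed on XM_006535620, a predicted transcript model, stood between 4.76 and 5.31 on all 11 arrays, although it was well above background on each. Its difference was 0.06 in culture (95% interval -0.33 to 0.44, adjusted p = 0.848 in limma) and -0.07 with cytokines (-0.46 to 0.31, adjusted p = 0.95 in limma). Averaging it with the other 5 makes the gene value of Cd36 understate their change. The first 30 bases of both probes, as the array files give them, are shown to identify the pair that disagreed.
Cd36 probe on NM_001159558: gtgagccactgcttatatattaagtctctc
Cd36 probe on XM_006535620: ggtgtgtttactttctgtgtctccttcaac

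All 4 Msr1 probes were called higher in culture, by 3.26 to 4.43. The probe on XM_006509311 had passed the filter on dim probes only through the cultured groups. With cytokines all 4 differences were negative, and the probe on XM_006509312, another predicted model, was called (-1.31, adjusted p = 0.00197 in limma), while the others were at -0.91, -1.46 and -0.81 (adjusted p = 0.0551, 0.0576 and 0.22 in limma). Between adult and newborn cells the probes split in direction, where 9.08% of all probes were called higher and 10.2% lower. Those on NM_001113326 and NM_031195 were lower in A_FACS, with differences of -1.03 and -2.83 (adjusted p = 0.0128 and 0.000381 in limma). The probe on XM_006509311 was well above background on 0 of 2 adult arrays and 2 of 3 NB_FACS arrays, and was at least 2.63-fold higher in NB_FACS (adjusted p = 0.00111 in limma). The probe on XM_006509312 was higher in A_FACS, at 6.28 and 6.67 against 5.71, 5.89 and 5.99 in NB_FACS, a difference of 0.61 (adjusted p = 0.0328 in limma). The first 30 bases of this probe and of the brightest Msr1 probe are shown for the same reason.
Msr1 probe on NM_031195: aaacgctgagaggcaccattgaagagtcct
Msr1 probe on XM_006509312: gtggggagtactaagctgttcacattcaga

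Scarb1 and Colec12 each had a pair of probes. In culture both Scarb1 probes fell, as 12.7% of all probes did, by 1.28 for NM_016741 (adjusted p = 0.00213 in limma) and by 0.43 for NM_001205083 (adjusted p = 0.0403 in limma). In adult against newborn cells the first differed by -1.39 (adjusted p = 0.00417 in limma) and the second by -0.01 (adjusted p = 0.971 in limma). Of the Colec12 probes the one on NM_130449 rose by 4.35 in culture (adjusted p = 0.000308 in limma). The one on XM_006525640 was well above background on 0 of 3 NB_FACS arrays and was at least 5.75-fold higher in NB_Control (adjusted p = 0.000157 in limma). It passed the filter on dim probes only through the cultured groups. In adult against newborn cells the probe on NM_130449 differed by -4.29 (adjusted p = 0.00131 in limma). The one on XM_006525640, not well above background on any sorted array, differed by -0.48 (adjusted p = 0.577 in limma).

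**Figure D3:**
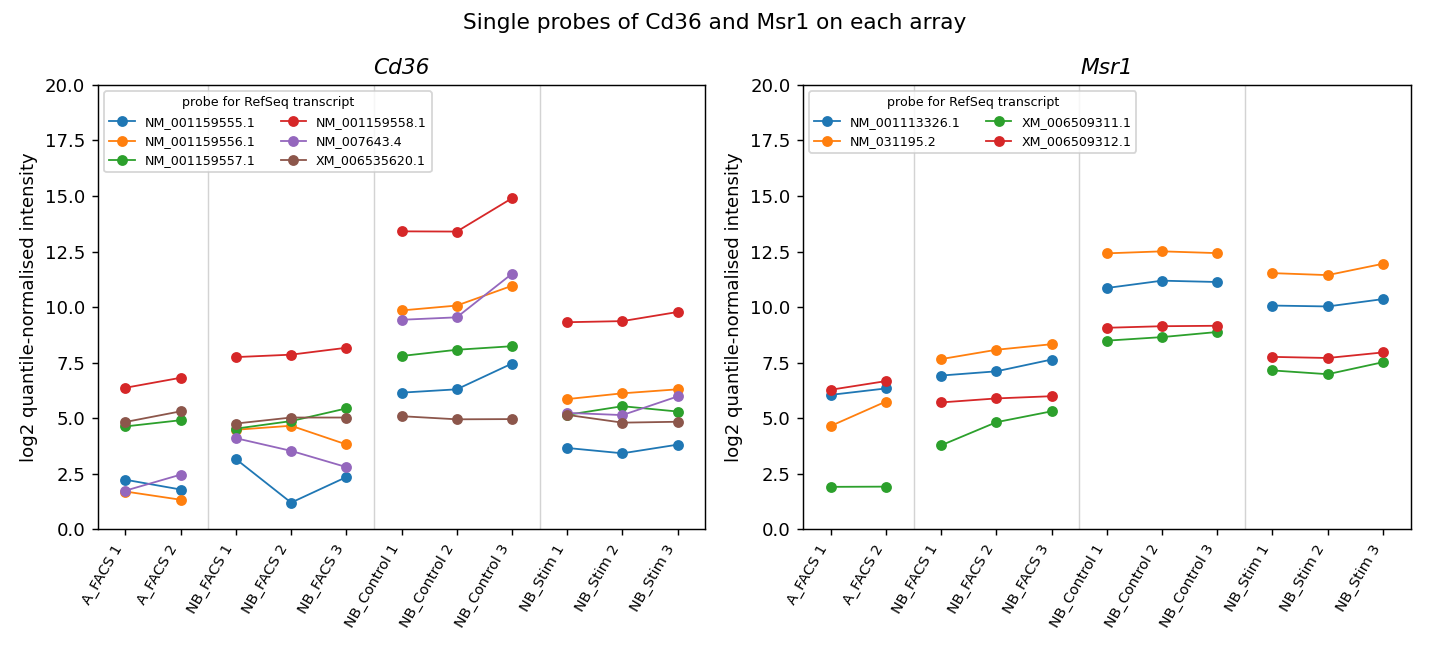
Log2 quantile-normalised intensity (vertical axis) of each probe of Cd36 (left, 6 probes) and Msr1 (right, 4 probes) on every array (horizontal axis, lines join the replicates of a group). The Cd36 probe on XM_006535620 stays between 4.76 and 5.31 while the other 5 are highest in NB_Control, and the Msr1 probe on XM_006509312 alone is higher in A_FACS than in NB_FACS.

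Promoter sequences of Cd36, Cd5l and Marco, which rose together in culture, are shown, from 250 bases before to 50 bases after the annotated start, 5′ to 3′ on the strand of the gene, from RefSeq on GRCm38.p6. Capitals mark GAGGAA, the core of sites of the macrophage factor PU.1, and AGGTCA, the half-site of nuclear receptors such as PPARγ and LXR, on either strand.
Cd36, chr5:17835847-17836146 (- strand): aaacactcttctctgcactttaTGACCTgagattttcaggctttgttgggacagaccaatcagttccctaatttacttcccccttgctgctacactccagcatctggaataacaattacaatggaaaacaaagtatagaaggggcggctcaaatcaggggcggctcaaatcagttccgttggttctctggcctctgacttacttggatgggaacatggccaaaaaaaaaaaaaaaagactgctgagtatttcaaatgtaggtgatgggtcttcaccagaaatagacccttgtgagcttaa
Cd5l, chr3:87357631-87357930 (+ strand): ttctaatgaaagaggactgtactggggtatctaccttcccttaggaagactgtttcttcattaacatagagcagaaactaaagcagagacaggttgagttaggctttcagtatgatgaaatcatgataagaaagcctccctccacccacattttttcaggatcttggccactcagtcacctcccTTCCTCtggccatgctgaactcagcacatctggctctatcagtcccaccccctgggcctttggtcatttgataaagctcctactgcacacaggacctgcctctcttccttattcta
Marco, chr1:120504975-120505274 (- strand): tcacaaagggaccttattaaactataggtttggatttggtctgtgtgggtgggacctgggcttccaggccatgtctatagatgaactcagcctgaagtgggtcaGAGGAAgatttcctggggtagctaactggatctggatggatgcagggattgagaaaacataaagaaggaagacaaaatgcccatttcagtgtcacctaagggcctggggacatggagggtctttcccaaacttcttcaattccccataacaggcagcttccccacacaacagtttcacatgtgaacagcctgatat
Cd36 held 1 match to AGGTCA, in reverse orientation, and 0 to GAGGAA. Cd5l held 1 reverse match to GAGGAA and Marco 1 forward match, and both held 0 matches to AGGTCA. Over 32851 mouse promoters of the same length, 28.3% held GAGGAA and 16.3% held AGGTCA on either strand. Olr1, which fell in culture, held 1 match to each of these motifs. In the same 4 promoters CAGAC, a SMAD-type motif, had 1 match each in Cd36 and Marco, 2 in Olr1 and 0 in Cd5l, TGANTCA, an AP-1-type motif, had 1 match in Olr1 and 0 in the others, and CACGTG, an E-box, had 0 in all 4. These were held by 49.6%, 7.81% and 7.15% of all promoters. A match is a description of these letters and not a site in use.

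Other genes of lipid handling were read from a list of 15, of which 14 were tested. Counts of this and the following lists stand beside the shares of all genes, which were 15.8% called higher and 13.9% lower in culture, 1.40% and 2.00% with cytokines, and 9.75% and 12.9% in adult against newborn cells. In culture 6 of the 14 were called higher and 1 lower. Fabp4, a fatty acid carrier and target of PPARγ, rose by 4.55 (adjusted p = 6.87e-07 in limma), Pparg itself by 3.49 (adjusted p = 0.00294 in limma) and Fabp5 by 3.10 (adjusted p = 0.0112 in limma). With cytokines 4 of the 14 were called lower and 1 higher. Pparg fell by 4.59 (adjusted p = 0.00489 in limma) and Fabp4 fell by 2.07 (adjusted p = 0.00053 in limma). Pparg stood at 5.33, 5.90 and 6.15 in NB_FACS, at 8.62, 8.55 and 10.67 in NB_Control and at 4.29, 3.93 and 5.85 in NB_Stim, with replicate 3 the highest of NB_Control as for Cd36 and Cd5l. In adult against newborn cells 7 were called lower and 2 higher, led by Fabp5 (-4.21), Plin2, a lipid droplet coat protein (-2.83), and Lpl, lipoprotein lipase (-2.82), with adjusted p-values of 0.00614, 0.000231 and 0.0094 in limma.

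Partners of Cd14 in lipopolysaccharide recognition changed while Cd14 did not pass. Of 15 tested, 4 were called higher and 7 lower in culture. Tlr2, a receptor for bacterial lipopeptides, fell by 3.12 (adjusted p = 2.13e-05 in limma), Lbp, which carries lipopolysaccharide to Cd14, fell by 2.06 (adjusted p = 0.0495 in limma) and the adaptor Ticam1 fell by 1.82 (adjusted p = 2.17e-05 in limma). Tlr4 and its co-receptor Ly96 rose by 1.55 (adjusted p = 0.00095 in limma) and 1.49 (adjusted p = 0.000128 in limma). With cytokines 1 was called higher and 2 lower, namely Tlr2 at 1.73, Tlr4 at -1.55 and Ly96 at -1.16 (adjusted p = 0.00624, 0.00752 and 0.00471 in limma). In adult against newborn cells 2 of 15 were called higher, a share near the 9.75% of all genes, and 0 lower. The 2 were the integrin chains Itgb2 (1.58, adjusted p = 0.00109 in limma) and Itgam (1.09, adjusted p = 0.0421 in limma).

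**Figure D4:**
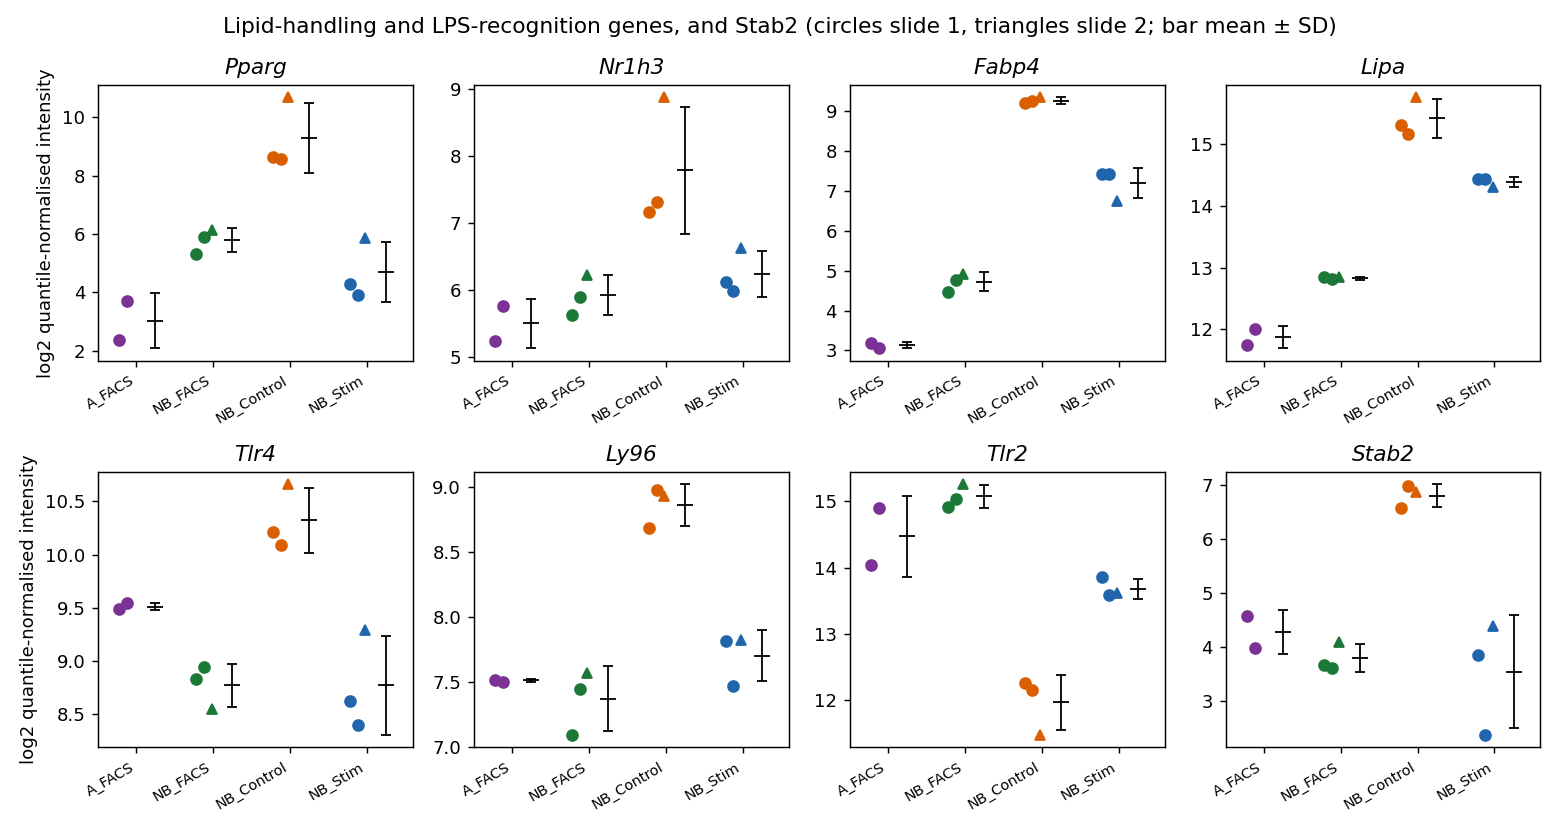
Log2 quantile-normalised intensity (vertical axis, own range per panel) of 4 lipid-handling genes, 3 lipopolysaccharide-recognition genes and the scavenger receptor Stab2 on every array by group, with circles for slide 1, triangles for slide 2 and a bar for the mean ± SD (n = 2 for A_FACS, n = 3 otherwise). Pparg, Nr1h3, Fabp4, Lipa, Tlr4, Ly96 and Stab2 are highest in NB_Control on all 3 arrays, and Tlr2 is lowest there.

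Further scavenger receptors moved in both directions. Of 14 tested from a list of 16, 6 were called higher and 4 lower in culture, with a median difference of 0.17 beside 0.09 over all genes. Cd163, the haemoglobin scavenger, fell by 3.07 (adjusted p = 0.0313 in limma), while Stab2, which takes up hyaluronan, rose by 3.01 (adjusted p = 0.000586 in limma) and Ssc5d, a secreted cysteine-rich protein, by 2.95 (adjusted p = 0.000146 in limma). With cytokines Stab2 fell by 3.27 (adjusted p = 0.00333 in limma) and Scarb2, a lysosomal class B protein, rose by 1.12 (adjusted p = 0.00192 in limma), and the other 12 did not pass. Of 9 tested ligands of these receptors 4 were called higher and 1 lower in culture, led by Thbs2, a matrix protein bound by Cd36 (3.34, adjusted p = 0.00151 in limma). With cytokines the 9 differed by -1.47 to 0.76 and did not pass. Apoe, counted among the 9, stood at 17.31 with an SD of 0 in every newborn group after quantile normalisation. Its comparisons among these groups are therefore uninformative, and its place among those that did not pass is not read as a lack of change.

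Transcription factors known to act on scavenger receptor genes were read from a list of 14, of which 12 were tested. In culture 4 were called higher and 4 lower, with Klf4 falling by 4.82, Smad3, a mediator of TGF-β, by 2.18, and Mitf rising by 1.42 (adjusted p = 3.94e-05, 0.00105 and 4.22e-05 in limma). With cytokines Maf, a macrophage factor, fell by 1.77 (adjusted p = 0.000217 in limma) and Cebpa rose by 1.11 (adjusted p = 0.0298 in limma). In adult against newborn cells 4 were called higher and 2 lower, with Tfec, a relative of Mitf in macrophages, falling by 3.79 (adjusted p = 1.25e-05 in limma).

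Markers of other cells moved with the same groups. All 10 border macrophage markers were tested, and their summed signal was 1430 to 1870 in A_FACS, 12900 to 15600 in NB_FACS, 47900 to 90000 in NB_Control and 20700 to 34300 in NB_Stim. In culture 3 were called higher and 3 lower, with Ms4a7 at 6.66 and Pf4 at 4.71 but Cbr2 at -3.15 and Cd163 at -3.07, and Lyve1 was called lower. With cytokines Mrc1 fell by 5.24 (adjusted p = 3.59e-06 in limma) and the other 9 did not pass, and in adult against newborn cells 6 of 10 were lower. Lyve1 was not well above background on any NB_Control array and Cd163 on any NB_Stim array. The part of such cells in the scavenger receptor values was not tested.

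Fibroblast and pericyte markers summed to 6390 to 9290 in A_FACS, 2700 to 2860 in NB_FACS, 43000 to 50700 in NB_Control and 25800 to 55500 in NB_Stim, with 6 of 10 called higher and 1 lower in culture, led by Tagln (6.66), and Col1a1 at 5.23. Col3a1 and Lum were not well above background on the adult arrays. These sums rose from NB_FACS to culture as Colec12 did, and their part in its value was not tested. Endothelial markers summed to 8870 to 18400 in A_FACS, 6290 to 8980 in NB_FACS, 1320 to 1400 in NB_Control and 2210 to 2620 in NB_Stim, with 4 of 10 called higher in adult than in newborn sorted cells. Erythroid markers summed to 8790 to 25600 in A_FACS, 149000 to 205000 in NB_FACS, 455 to 477 in NB_Control and 495 to 535 in NB_Stim, with 5 of 8 called lower in adult than in newborn sorted cells. Astrocyte markers summed to 854 to 1300 in A_FACS, 2410 to 2650 in NB_FACS, 3600 to 3730 in NB_Control and 3090 to 4190 in NB_Stim. Oligodendrocyte lineage markers, of which 5 of 9 were tested, summed to 482 to 857 in A_FACS, 641 to 679 in NB_FACS, 1340 to 1970 in NB_Control and 9260 to 12600 in NB_Stim, and 5 of 5 were called higher in NB_Stim than in NB_FACS. With cytokines 1 of the 5 was called higher and 0 lower. Most of the NB_Stim sum was Cspg4, at 13.48, 13.42 and 12.41 in NB_Stim against 9.67, 9.59 and 9.34 in NB_Control. Neuron markers summed to between 4260 and 7270 on all arrays. Monocyte markers summed to 3140 to 5080 in A_FACS, 1370 to 1710 in NB_FACS, 937 to 1250 in NB_Control and 852 to 1130 in NB_Stim. Neutrophil markers summed to 669 to 1390 in A_FACS, 604 to 5940 in NB_FACS, 1290 to 1410 in NB_Control and 1800 to 2340 in NB_Stim. NB_FACS replicate 3 stood apart, with S100a8 at 11.82 against 6.29 and 5.59 and Ltf at 9.61 against 5.27 and 5.18 on the other NB_FACS arrays. The part of these cells in the scavenger receptor values was not tested either.

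For each gene the closest patterns over all 11 arrays were found by Pearson r, as a description with no test. Marco was nearest to Gosr1 (0.997), Pex19 (0.994) and Adam8 (0.994), Msr1 to Pdcd6 (0.996), Slc25a24 (0.995) and Ppp1cc (0.994), and Colec12 to Tsku (0.996), Polr2l (0.996) and Capn5 (0.995). Cd36 was nearest to G6pdx (0.983), Efemp1 (0.982) and Cmbl (0.981), and Cd5l to Mlkl (0.976), Snx16 (0.972) and Cib1 (0.969). For Scarb1 these were Cfap299 (0.985), H2ac15 (0.984) and H2ac1 (0.979), for Olr1 Gm31529 (0.945), Xkr7 (0.925) and Bcl6b (0.922), and for Cd14 Erv3 (0.947), Olfr429 (0.945) and Tmem269 (0.944). The 11 arrays share their groups and slides, and nothing follows from these values about shared function or control.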

How the data were processed

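Expression was measured on 11 one-colour Agilent arrays. The deposited scanner files hold a background-subtracted signal intensity per spot from Feature Extraction 11.5.1.1, and the deposited series table holds the same intensity values (0 of 62927 entries differed beyond a relative tolerance of 1e-05). The authors used quantile-normalised data. Here, flagged spots were left out, repeated spots averaged, log2 intensities quantile normalised, and 44727 of 60037 probes kept that were well above background on every array of a group. Probes were named through RefSeq accessions (36264, or 60.4%, matched) and averaged to 19555 genes. The array files give no positions on the build of the reference table, so none are given for genes.

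Each gene was fitted in limma 3.58.1 (R 4.3.3) with 1 mean per group over all arrays, with two-sided moderated tests and Benjamini-Hochberg adjustment over all genes within each comparison, called under 0.05. The script was tested on simulated data. The pairing check took deviations from group means: the 9 same-numbered pairs of newborn arrays correlated at 0.11 to 0.49, so a fit with the number as a block was run as an alternative, while the main fit has no block. Number 3 coincides with slide 2.

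The 8 genes and the context lists were chosen with earlier results of these data known. By rule all 8 genes are named in every comparison, and of a context list up to 3 called genes with the largest absolute difference, apart from those named for their place beside a gene of the set or as cell markers, which were chosen after their values were seen. One gene that the rule names is not reported here. A group dark on all arrays gives a bound against the lowest signal well above background. Alternatives covered scaling, background correction (normexp with an offset of 50), the probe filter, probe summary, blocks, the samples fitted, the study's Tukey test and each array left out. A fit per probe was added after seeing the data. Figures were drawn with matplotlib.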

Additional observations from a re-analysis of the deposited data

How the results depend on the processing

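The calls of Msr1, Marco, Colec12, Cd36, Cd5l and Scarb1 in NB_Control against NB_FACS held under every alternative with a test, and that of Olr1 under all but the Tukey test with Benjamini-Hochberg adjustment (adjusted p = 0.0527). Their sizes did not all hold: log2 differences fell to 4.99 for Marco, 2.44 for Colec12 and 2.85 for Cd36 under normexp, whose offset by itself shrinks differences of dim signals. Leaving out each array in turn called 7 to 8 of the 8 genes in NB_Control against NB_FACS, 2 to 4 in NB_Stim against NB_Control, 5 to 6 in NB_Stim against NB_FACS, 3 to 7 in A_FACS against NB_FACS, 5 in A_FACS against NB_Control and 4 to 5 in A_FACS against NB_Stim. In NB_Stim against NB_Control 5 genes were called within slide 1 and 1 under the adjusted Tukey test or with cultured replicates 1 and 2 averaged. In A_FACS against NB_FACS 3 were called under normexp and under the Tukey test, adjusted or not.

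Reversals of sign concerned values that had not passed. With 1 array left out, Cd14 ranged from -0.06 to 0.66 in NB_Control against NB_FACS, from -0.52 to 0.19 with cytokines (0.14 without NB_Control replicate 2, 0.10 without NB_Stim replicate 3) and from -0.20 to 0.51 in A_FACS against NB_Control, Scarb1 from -0.09 to 0.08 with cytokines, and Olr1 from -0.27 to 0.19 in A_FACS against NB_Stim (0.06 without A_FACS replicate 2, 0.08 without NB_Stim replicate 2). With cultured replicates averaged Cd14 was at -0.03 against NB_FACS and 0.08 with cytokines, and Olr1 at 0.13. Under percentile scaling Cd14 was at 0.00 in A_FACS against NB_Control and Olr1 at 0.07, and under normexp Olr1 was at 0.04. Within slide 1 Cd14 was at -0.20 in A_FACS against NB_Control and Scarb1 at 0.07 with cytokines. By its brightest probe Scarb1 was at -0.11 and -0.10 in A_FACS against NB_Control and NB_Stim.

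Over all genes the cytokine comparison called 666, against 1009 under normexp, 1193 with the replicate block, 1476 with the slide block, 1032 within slide 1, 1590 and 183 by the Tukey test unadjusted and adjusted, 118 with replicates averaged and 304 to 703 with 1 array left out (304 and 318 without NB_Stim replicates 1 and 2, 334 and 337 without NB_Control replicates 1 and 2). A_FACS against NB_FACS called 4434, against 2923 with only these groups fitted, 2014 by the adjusted Tukey test and 2456 without A_FACS replicate 1. The adjusted Tukey test also called 3547 in place of 5811 in NB_Control against NB_FACS and 3620 in place of 6082 in NB_Stim against NB_FACS, and 4881 and 4654 in place of 7982 and 7869 in A_FACS against NB_Control and NB_Stim, where 5188 and 4890 were called without A_FACS replicate 1. The replicate block, which pairs the newborn arrays, changed the call of Marco with cytokines (adjusted p = 0.0239) and no other call of the 8 genes. Signal near background limits Marco in both sorted groups, and Colec12, Cd36 and 1 Msr1 probe in adult cells. In NB_FACS it also limits the Colec12 probe on XM_006525640 and the Cd36 probes on NM_001159555 and NM_007643.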
